A study of Mus musculus with 4 samples.

Results

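The neutrophil granule and alarmin genes described here are 8 of the 32285 genes in the deposited matrices: S100a8, S100a9, Ngp, Camp, Ltf, Retnlg, Slpi and Saa3, chosen by gene symbol. Their raw UMI counts (a UMI is a molecular tag that counts 1 captured RNA molecule once) were read in 4 single-cell libraries of CD45+ leukocytes sorted live from B16-F10 melanomas grown in mice. B16-F10 is a transplantable mouse melanoma cell line. The combination group received CD40 antibody into the tumour and PD1 antibody intravenously, the CD40 group received CD40 antibody into the tumour, the PD1 group received PD1 antibody intravenously, and the control group was IgG-treated. Where CD40 antibody was not given the tumour received dilution buffer, and where PD1 antibody was not given the mice received IgG. Mice were dosed on day 8 and again on day 11, and the tumours were dissected on day 14 after inoculation. Each group is 1 library made from the pooled tumours of 6 mice, so no difference between groups has a replicate, and no p-value is given. The labels name neither the mouse strain nor the mice's age or sex.

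S100A8 and S100A9 are calcium-binding proteins that pair to form calprotectin, an abundant protein of the neutrophil cytosol that acts as an alarmin when it is released. Neutrophil granules are filled in an order during maturation in the bone marrow: proteases such as myeloperoxidase and neutrophil elastase are made first, then the contents of the secondary granules (neutrophilic granule protein, Ngp; cathelicidin, Camp; lactoferrin, Ltf), whose transcription is switched off before the cell enters the blood. Retnlg (resistin-like gamma) is a transcript of maturing and mature mouse neutrophils, Slpi encodes a secreted inhibitor of neutrophil elastase, and Saa3 encodes an acute-phase protein made in inflamed tissue by macrophages and other cells.

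On the GRCm38 build, the 3 secondary granule genes lie on chromosome 9: Camp (ENSMUSG00000038357) at chr9:109847379-109849617, Ngp (ENSMUSG00000032484) at chr9:110419747-110423012 and Ltf (ENSMUSG00000032496) at chr9:111019271-111042767, a stretch of 1195.4 kb from Camp to Ltf. S100a8 (ENSMUSG00000056054, chr3:90668978-90670035) and S100a9 (ENSMUSG00000056071, chr3:90692632-90695721) are 22596 bases apart. Retnlg (ENSMUSG00000022651) is at chr16:48872621-48874496, Slpi (ENSMUSG00000017002) at chr2:164354070-164389095 and Saa3 (ENSMUSG00000040026) at chr7:46711998-46715700. All 8 are protein-coding, and only Slpi overlapped another annotated gene, the microRNA gene Mir7678 on the same strand. The promoters of the secondary granule genes are shown because a few cells carried all 3 of these transcripts together, although Ltf was also read elsewhere. The promoter of Saa3 is shown because Saa3 was read mostly outside those cells. Each runs from 250 bases before to 50 bases after the RefSeq start on GRCm38.p6, written 5′ to 3′ along the gene. Capitals mark the letters TTNNGNAA on either strand, a core of the site bound by C/EBP factors, which act in the granulocyte lineage and in the acute-phase response.

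Ngp promoter, chr9:110419558-110419857, plus strand: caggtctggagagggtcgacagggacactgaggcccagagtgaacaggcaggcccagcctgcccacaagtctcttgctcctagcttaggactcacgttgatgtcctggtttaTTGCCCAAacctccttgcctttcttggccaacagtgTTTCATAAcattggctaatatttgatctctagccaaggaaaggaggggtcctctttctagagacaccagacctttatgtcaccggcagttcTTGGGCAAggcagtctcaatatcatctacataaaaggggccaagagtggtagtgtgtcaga
Camp promoter, chr9:109849407-109849706, minus strand: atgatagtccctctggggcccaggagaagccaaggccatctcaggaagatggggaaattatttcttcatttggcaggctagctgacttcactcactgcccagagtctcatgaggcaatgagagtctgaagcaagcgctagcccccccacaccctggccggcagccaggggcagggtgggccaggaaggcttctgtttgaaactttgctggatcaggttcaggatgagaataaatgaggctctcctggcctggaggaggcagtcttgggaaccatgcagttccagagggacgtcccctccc
Ltf promoter, chr9:111019042-111019341, plus strand: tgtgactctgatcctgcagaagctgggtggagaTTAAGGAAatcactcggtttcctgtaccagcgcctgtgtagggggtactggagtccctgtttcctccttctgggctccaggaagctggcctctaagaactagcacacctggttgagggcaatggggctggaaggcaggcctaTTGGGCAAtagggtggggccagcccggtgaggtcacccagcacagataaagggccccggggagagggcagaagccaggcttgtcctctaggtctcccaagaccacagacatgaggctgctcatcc
Saa3 promoter, chr7:46715627-46715926, minus strand: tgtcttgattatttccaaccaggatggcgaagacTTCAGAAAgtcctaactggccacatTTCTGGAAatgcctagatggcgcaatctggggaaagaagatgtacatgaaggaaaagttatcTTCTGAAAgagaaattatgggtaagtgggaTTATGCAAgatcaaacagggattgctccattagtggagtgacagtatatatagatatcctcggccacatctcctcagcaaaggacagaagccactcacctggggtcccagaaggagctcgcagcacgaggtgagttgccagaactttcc

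These letters occurred 3 times in the Ngp window, 2 times in the Ltf window, 4 times in the Saa3 window and at no position in the Camp window. Of the 8 members, 7 held them at least once, against 40.7% of 32544 RefSeq promoters of the same length. A match is a run of letters and not a measured binding site.

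Neutrophils were gated on raw UMIs: at least 10 of S100a8 plus S100a9, at least 1 of Csf3r (the receptor for granulocyte colony-stimulating factor) and at most 1 of Csf1r (the receptor for macrophage colony-stimulating factor). After filtering, 860 of 9481 combination cells (9.07%, 95% interval 8.50 to 9.67), 355 of 7757 CD40 cells (4.58%, 4.12 to 5.07), 140 of 9681 PD1 cells (1.45%, 1.22 to 1.70) and 176 of 7736 control cells (2.28%, 1.95 to 2.63) passed the gate, 1531 of 34655 kept cells in all. Exact Clopper-Pearson intervals on shares and exact Poisson intervals on summed counts cover counting error only. A gate that uses no member gene (Csf3r with at least 2 of 7 other neutrophil genes) held 9.76% of combination, 5.38% of CD40, 2.23% of PD1 and 3.15% of control cells, so the order of the libraries was the same without the S100 genes. It contained 95.2% to 97.0% of the gated cells of each library. Just below the S100 threshold, at 5 to 9 UMIs, lay 30, 22, 7 and 17 cells in the combination, CD40, PD1 and control libraries, and just above it, at 10 to 14, lay 30, 17, 5 and 3.

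The gated cells carried all 9 neutrophil markers of a list written for this work (Csf3r, which the gate used, Cxcr2, Hdc, G0s2, Il1r2, Mmp9, Trem1, Clec4d, Acod1), none of them at 0, with a summed level of 7393 to 14560.3 CPM (UMIs per 1000000 UMIs of the class). The same list summed to 364 to 867 CPM in mononuclear phagocytes and 71.6 to 132 CPM in T cells. Markers of other cells were also present in the gate. Mononuclear phagocyte markers (11 genes) summed to 1592 to 3653 CPM, against 18249 to 23477 CPM in that class itself. T cell markers (5 genes, none at 0) summed to 358 to 999 CPM. Dendritic cell markers (7 genes, Xcr1 at 0 in all 4 libraries) summed to 6.8 to 816 CPM. Both lists had their highest value in the PD1 library. All 3 mast cell and basophil markers were at 0. The part of these other cells in the values below was not tested. GEO labels the cell type as melanoma, but Ptprc, which encodes CD45, was read in 93.1% to 95.3% of kept cells, and 0.127% to 0.297% of cells had 10 or more UMIs of the melanoma markers.

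Depth per cell differed between the groups. Over all kept cells the median was highest in the CD40 library, at 14663 UMIs. It was 13141 UMIs in the combination, 11727 in the PD1 and 11390.5 in the control library. As a library total, which also depends on the number of cells, the combination library was highest (164755549 UMIs) and the control library lowest (117735875 UMIs). The gated neutrophils had median depths of 4584.5 UMIs (combination), 3675 (CD40), 2275.5 (PD1) and 2131 (control). Shares of cells with a UMI are therefore also given after thinning each cell to 1000 UMIs, which left out 2, 2, 3 and 10 gated neutrophils of those libraries. Between any pair of libraries, 94 to 144 cell barcodes were shared, at most 1.73% of a library. The level in T cells, a class not known for these transcripts, is given beside the shares for comparison, and a few T cells held many member UMIs. In the combination library 4 T cells held 72.1% of the S100 UMIs of the class.

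S100a8 and S100a9 were the members read in nearly every gated neutrophil, which the gate itself ensures, so the values are a description. S100a8 stood at 26215 CPM in combination, 33533 CPM in CD40, 23489 CPM in PD1 and 23439.8 CPM in control neutrophils. S100a9 stood at 36178 CPM in combination, 42644 CPM in CD40, 28482 CPM in PD1 and 25781 CPM in control neutrophils. Both were highest in the CD40 library, with combination next. Together the pair made up 6.24% of the UMIs of gated neutrophils in the combination library, 7.62% in the CD40 library, 5.2% in the PD1 library and 4.92% in the control library. In thinned cells the median neutrophil held 21 S100a8 and 31 S100a9 UMIs in the combination library, 25 and 36 in the CD40 library, 23 and 34 in the PD1 library, and 24.5 and 26 in the control library. The tenth to ninetieth percentile of S100a9 ran over 3 to 92, 2 to 112, 4 to 100 and 3 to 84.5 UMIs in the combination, CD40, PD1 and control libraries.

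**Figure D1:**
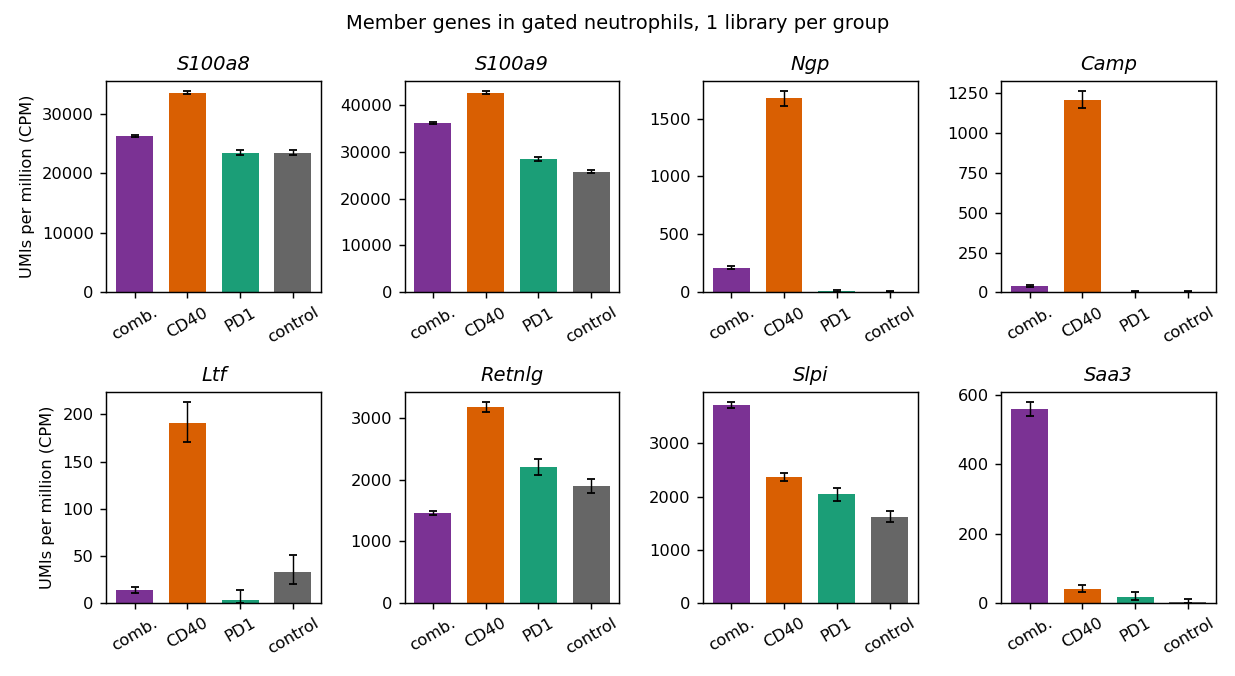
Level of each member in gated neutrophils, in CPM (linear axis from 0, a scale of its own in each panel), for the combination, CD40, PD1 and control libraries; bars are summed counts of 1 library and error bars exact 95% Poisson intervals, which cover counting error only. Ngp, Camp and Ltf stand highest in the CD40 library, Slpi and Saa3 in the combination library, and Retnlg is lowest in the combination library.

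On the log2 scale S100a8 stood 0.52 (95% counting interval 0.49 to 0.54) higher in CD40 than in control neutrophils, and S100a9 was 0.73 (0.70 to 0.75) higher. Combination against PD1 neutrophils differed by 0.16 (0.13 to 0.18) for S100a8 and by 0.35 (0.32 to 0.37) for S100a9. The S100a8 difference took the opposite sign when each cell had equal weight (-0.24), after thinning (-0.23), with doublets kept (-0.01) and with no cell filter (-0.01), and S100a9 also changed sign with equal weight (-0.03) and thinning (-0.05). In the gate that uses no member, S100a8 stood at 24130 CPM in combination, 24497 CPM in CD40, 9444 CPM in PD1 and 12744 CPM in control cells. S100a9 in that gate stood at 33351, 31240, 11513 and 14001 CPM in the combination, CD40, PD1 and control cells. There both genes were higher in each library with CD40 antibody than in each library without it. Of the cells in that gate, 90.2% of combination, 81.1% of CD40, 62.0% of PD1 and 69.3% of control cells also passed the S100 gate.

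Of the 8 members in gated neutrophils, 4 were at least 2-fold higher and 0 at least 2-fold lower in CD40 than in control cells, where 5.49% of 6196 genes read were higher and 6.36% lower by that fold. Genes were read where they had at least 30 UMIs over both libraries of a comparison. The 8 members include S100a8 and S100a9, which the gate uses, and counts under 3 enter the medians as bounds. These counts and medians are therefore a description and not a test. The median log2 ratio of the 8 members was 1.64, beside -0.12 over all genes read. For combination against PD1, 4 of the 8 were at least 2-fold higher and 0 lower, where 4.88% of 8053 genes were higher and 28.1% lower, with a median of 1.08 beside -0.61 over all genes. Relative to that shift of all genes, S100a8 and S100a9 lay 0.77 and 0.96 higher on the log2 scale. For PD1 against control, 4 of the 8 members were read, 0 passed the fold in either direction, where 6.21% of 4847 genes were higher and 1.96% lower, and the median was 0.18 beside 0.06. For combination against CD40, 1 member was higher (Saa3) and 4 lower (Ngp, Camp, Ltf, Retnlg), where 4.18% of 8428 genes were higher and 8.14% lower, and the median was -0.74 beside -0.29. The comparisons share libraries in pairs, and in the first 2 the members past the fold were Ngp, Camp, Ltf and Saa3. These reached 30 UMIs only through the CD40 or combination library. Control neutrophils held 1, 0, 19 and 2 of their UMIs, and PD1 neutrophils 4, 0, 2 and 9. Ngp and Camp rested on very few cells in both, and Ltf did in the CD40 library. For combination against PD1, Ltf (66 and 2 UMIs) had a lower bound of 1.29, with an interval of -0.03 to 4.95 that includes 0.

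Ngp, Camp and Ltf were not read in most neutrophils. Ngp stood at 214 CPM in combination, 1673 CPM in CD40, 7.37 CPM in PD1 and 1.73 CPM in control neutrophils. Camp stood at 40.1 CPM in combination and 1210.5 CPM in CD40 neutrophils, and at 0 UMIs in PD1 and control neutrophils, where a count of 0 allows up to 5.53 and 5.19 CPM. Ltf stood at 13.5 CPM in combination, 191 CPM in CD40, 3.68 CPM in PD1 and 32.9 CPM in control neutrophils. Ngp was read in 23 of 860 combination, 20 of 355 CD40, 3 of 140 PD1 and 1 of 176 control neutrophils. A single cell held 95.5% of the Ngp UMIs in combination neutrophils, and another held 57.1% of those in CD40 neutrophils. The fold differences in Ngp and Camp are therefore differences in the number and content of a handful of cells. Ltf in CD40 neutrophils was alike, with 284 of 315 UMIs in 4 cells. In combination neutrophils the cell with most of the Ngp held only 15 of 66 Ltf UMIs.

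Over all kept cells, 16 carried 10 or more Ngp UMIs: 11 of 9481 in the combination library (0.116%, exact interval 0.0579 to 0.207), 4 of 7757 in the CD40 library (0.0516%, 0.0141 to 0.132), 1 of 9681 in the PD1 library (0.0103%, 0.000262 to 0.0575) and 0 of 7736 in the control library, which allows a share of up to 0.0388% by the limit of 3 counts and 0.0477% by the exact interval. Below these cells there was a gap, since the next highest Ngp count was 6, 3, 4 and 1 UMIs in the combination, CD40, PD1 and control libraries. The 16 cells held 97.8% of Ngp and 96.6% of Camp UMIs of the combination library, 98.7% and 98.9% of those of the CD40 library, and 98.6% and 99.3% of those of the PD1 library. They held less of Ltf, 73.9%, 70.8% and 62.4% in the combination, CD40 and PD1 libraries. The whole control library contained 3 Ngp, 6 Camp and 97 Ltf UMIs. No cell removed as a doublet or by the cell filter had 10 Ngp UMIs.

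**Figure D2:**
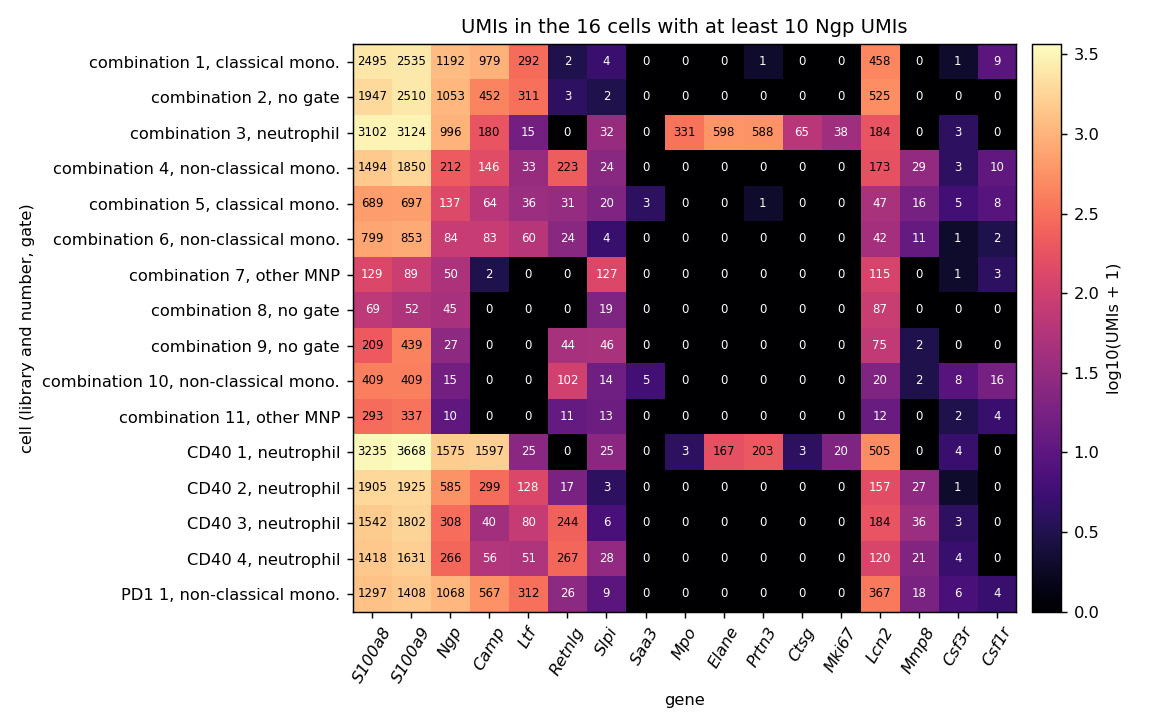
UMIs of member genes, protease genes of the primary granules (Mpo, Elane, Prtn3, Ctsg), the proliferation gene Mki67, other secondary granule genes (Lcn2, Mmp8) and the gate genes Csf3r and Csf1r in the 16 cells with at least 10 Ngp UMIs; rows are single cells named by library, number and gate (MNP, mononuclear phagocytes), columns are genes, and colour is log10(UMIs + 1). Primary granule genes reach 10 UMIs in combination cell 3 and CD40 cell 1, and Saa3 is at most 5 UMIs in any row.

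The granule-rich cells were not alike. In combination cell 3 (60221 UMIs in total), 996 Ngp and 180 Camp UMIs came with 331 of Mpo (myeloperoxidase), 598 of Elane (neutrophil elastase), 588 of Prtn3 (proteinase 3), 65 of Ctsg (cathepsin G) and 38 of Mki67, a gene of dividing cells, and with no Retnlg. CD40 cell 1 (39119 UMIs) had 1575 Ngp and 1597 Camp UMIs with 167 of Elane, 203 of Prtn3 and 20 of Mki67, and again no Retnlg. The primary granule genes of the gated neutrophils came nearly all from these 2 cells. Mki67 was at 0 in the other 14.

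A second kind had Ngp, Camp and Ltf with at most 1 UMI of these protease genes. Combination cells 1 and 2 held 1192 and 1053 Ngp, 979 and 452 Camp and 292 and 311 Ltf UMIs, with 2 and 3 Retnlg UMIs. The PD1 cell held 1068 Ngp, 567 Camp, 312 Ltf and 26 Retnlg UMIs, and CD40 cell 2 held 585 Ngp, 299 Camp, 128 Ltf and 17 Retnlg UMIs. Others combined fewer secondary granule UMIs with much Retnlg. CD40 cells 3 and 4 had 308 and 266 Ngp, 40 and 56 Camp, and 244 and 267 Retnlg UMIs, and combination cell 4 had 212 Ngp, 146 Camp and 223 Retnlg UMIs. Mmp8, which encodes neutrophil collagenase, a protein of the secondary granules, was read at 29, 16 and 11 UMIs in combination cells 4, 5 and 6, at 27, 36 and 21 UMIs in CD40 cells 2, 3 and 4, and at 18 UMIs in the PD1 cell. The combination library also held 5 cells (7 to 11) with 10 to 50 Ngp UMIs and Camp at 0 to 2 and Ltf at 0, a pattern with no counterpart in the other libraries. Of all 16 cells, 11 had at least 3 Camp UMIs and the same number at least 3 Ltf UMIs, 10 had at least 10 Retnlg UMIs and 2 had any Saa3.

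The gates placed only 5 of the 16 among neutrophils, all 4 CD40 cells and 1 combination cell. Another 8, with 2 or more Csf1r UMIs, lay in mononuclear phagocyte gates, and 3 combination cells had no Csf3r UMI and fell in no gate. Their totals ran between 4530 and 60221 UMIs, and their doublet scores between 0.006 and 0.17 on a scale where 0.25 and above was removed. Whether a granule-rich barcode with Csf1r holds 1 cell or more than 1 was not tested. The Ngp level in mononuclear phagocytes (23.0 CPM in combination, 0.0626 CPM in CD40, 12.9 CPM in PD1 and 0 UMIs in control) rested on these cells too: a single cell held 69.6% of those UMIs in the combination library and 99.6% in the PD1 library.

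Without the granule-rich cells, a step chosen after the data were seen, Ngp in gated neutrophils was 9.75 CPM in combination and 15.8 CPM in CD40 cells, and Camp 3.32 and 2.53 CPM. PD1 and control neutrophils held no such cell, so their values stayed at 7.37 and 1.73 CPM for Ngp. Ltf was then 10.6 CPM in combination and 19.6 CPM in CD40 neutrophils, both below the 32.9 CPM of control neutrophils, where 8 cells carried 19 UMIs. The log2 difference between CD40 and control neutrophils moved to -0.74 for Ltf, and the ratio for Camp then compares counts at the limit of detection.

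Ltf was also read in a few T cells. The T cells (gated on Cd3d, Cd3e and Cd3g, with no Csf1r or Csf3r) held 128 of the 1011 Ltf UMIs of the combination library, 42 of 401 in the CD40 library, 162 of 500 in the PD1 library and 34 of 97 in the control library. Among them, 7, 3, 12 and 4 T cells of the combination, CD40, PD1 and control libraries had 3 or more Ltf UMIs, up to 33, 11, 19 and 13 in a cell. Of those cells, 7, 2, 12 and 4 had no S100a8 or S100a9 UMI, while all T cells together held 5, 2, 2 and 1 Ngp UMIs. Cd8a was read in 7, 3, 11 and 2 of them. In the granule-rich cells Ltf came with Ngp, and in T cells Ngp was near 0.

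Retnlg was lowest in the combination library. It stood at 1464 CPM in combination, 3180.3 CPM in CD40, 2209 CPM in PD1 and 1900.2 CPM in control neutrophils. Thinned to 1000 UMIs, 36.0% of combination (95% interval 32.8 to 39.3), 50.1% of CD40 (44.8 to 55.5), 64.2% of PD1 (55.6 to 72.2) and 50% of control neutrophils (42.2 to 57.8) had a Retnlg UMI. Combination neutrophils were lowest on both scales, and the PD1 library had the largest share and the CD40 library the largest sum. In thinned T cells the share was 0 to 0.0574%, at medians of 12664, 12020, 9403 and 7104 UMIs before thinning. Unthinned, 52.4%, 59.2%, 70.7% and 56.8% of combination, CD40, PD1 and control neutrophils had a UMI, against 0.545%, 0.320%, 0.0515% and 0.0605% of T cells.

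The log2 difference in Retnlg was 0.74 (0.65 to 0.84) for CD40 against control neutrophils, -0.59 (-0.68 to -0.50) for combination against PD1, 0.22 (0.10 to 0.34) for PD1 against control and -1.12 (-1.17 to -1.07) for combination against CD40. Relative to all genes read, the combination against PD1 value was 0.02. In the gate that uses no member, where PD1 and control cells included many with few S100 UMIs, Retnlg stood at 1356 CPM in combination, 2360 CPM in CD40, 885 CPM in PD1 and 1061 CPM in control cells, and combination against PD1 became 0.62. Combination stayed below CD40 in that gate. Most Retnlg UMIs lay in neutrophils, with 81.7%, 85.6%, 72.8% and 81.9% of its UMIs in the gate in the combination, CD40, PD1 and control libraries and 11.8, 8.04, 3.07 and 2.56 CPM in mononuclear phagocytes.

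Slpi was read in most neutrophils and was highest in the combination library. It stood at 3727 CPM in combination, 2373 CPM in CD40, 2039 CPM in PD1 and 1618 CPM in control neutrophils. Unthinned, 93.1% of combination, 86.5% of CD40, 72.9% of PD1 and 72.7% of control neutrophils had a Slpi UMI, against 2.67%, 2.29%, 1.70% and 1.21% of T cells. After thinning the shares were 73.2% (70.1 to 76.1), 70.8% (65.8 to 75.5), 56.9% (48.2 to 65.4) and 59.0% (51.1 to 66.6). Both libraries with CD40 antibody lay above both without it, but the CD40 and control intervals overlapped. The intervals of each pair with the same CD40 treatment overlapped too. The log2 difference was 0.55 (0.45 to 0.66) for CD40 against control, 0.87 (0.78 to 0.96) for combination against PD1, 0.33 (0.21 to 0.46) for PD1 against control and 0.65 (0.60 to 0.70) for combination against CD40, and it kept its sign in all 12 alternatives of each.

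**Figure D3:**
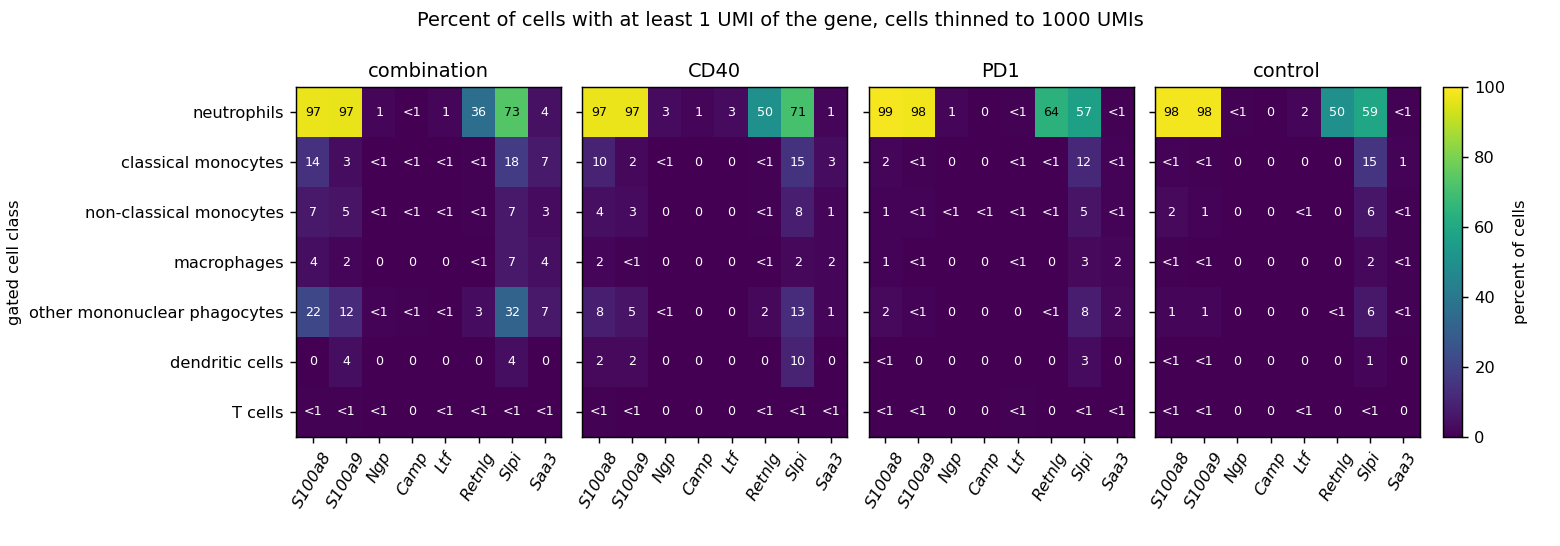
Percent of cells with at least 1 UMI of each member after thinning to 1000 UMIs, by gated class (rows) and gene (columns) in the combination, CD40, PD1 and control libraries; colour runs over 0 to 100 percent and numbers are rounded, with <1 for shares above 0. S100a8, S100a9, Retnlg and Slpi fill the neutrophil row, Slpi extends into monocytes, and S100a8 reaches 14 percent of classical monocytes in the combination library.

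Slpi was also read widely outside neutrophils. Gated neutrophils held 31.7% of Slpi UMIs (combination library), 18.7% (CD40), 7.65% (PD1) and 9.94% (control). Mononuclear phagocytes held 39.6%, 49.1%, 65.4% and 63.6%. As a share of the UMIs of the class, Slpi was far lower, at 306 CPM in combination, 107 CPM in CD40, 114 CPM in PD1 and 90.1 CPM in control mononuclear phagocytes. These cells were deeper than neutrophils, with medians of 18158.5, 19736.5, 13584 and 14797 UMIs. The gap in UMIs per cell was therefore smaller than the gap in CPM. Classical monocytes were the monocyte class most often positive after thinning in the CD40, PD1 and control libraries, at 14.6%, 11.7% and 15.4%, and stood at 17.8% in the combination library, where the other mononuclear phagocytes reached 31.7%. In the CD40 library 1 dendritic cell held 1834 Slpi UMIs, 95.3% of those in its class, and the dendritic level there (2287 CPM over 41 cells) rests on it.

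Slpi and Retnlg did not exclude each other. Among thinned neutrophils with Retnlg, 79.0% of combination, 80.2% of CD40, 68.2% of PD1 and 75.9% of control cells also had Slpi, against 69.9%, 61.4%, 36.7% and 42.2% of those without Retnlg. Il1a went the other way in the combination library, read in 21.0% of thinned neutrophils with Retnlg and 34.1% of those without. Splitting gated neutrophils by an Il1a UMI, the 387 combination cells with Il1a stood at 855 CPM for Retnlg, 4614 CPM for Slpi and 1077 CPM for Saa3, and the 473 without it at 2042, 2885 and 69.0 CPM. Cells with Il1a numbered 25, 3 and 5 in the CD40, PD1 and control libraries, and in the combination library they were also deeper, with a median of 5241 against 3908 UMIs.

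Within neutrophils, Saa3 was highest in the combination library and rested on few cells. It stood at 560 CPM in combination, 40.0 CPM in CD40, 16.6 CPM in PD1 and 3.46 CPM in control neutrophils, from 54, 5, 1 and 1 cells. The log2 difference was 5.08 (4.15 to 6.21) for combination against PD1 and 3.81 (3.45 to 4.18) for combination against CD40, while CD40 against control, on 66 and 2 UMIs, had a lower bound of 2.95. After thinning, 4.43% of combination neutrophils had a Saa3 UMI (3.15 to 6.03), with 1.42%, 0.73% and 0.60% in the CD40, PD1 and control libraries and 0 to 0.115% in T cells. In combination neutrophils 26 cells held 10 or more Saa3 UMIs and the top 10 cells held 81.1% of them.

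Those 26 Saa3-rich combination neutrophils, singled out after their values were seen, differed from the other 834 in further genes. Saa3 itself made up 17793 CPM in them. Lcn2, a secondary granule and acute-phase gene that encodes lipocalin 2, stood at 20581 CPM in them and 3455 CPM in the others, Slpi at 7264 and 3615 CPM, and Sod2, which encodes the mitochondrial superoxide dismutase, at 3407 and 951 CPM. Gpr84 did not rise, at 26.9 and 35.9 CPM. S100a9 was lower, at 16617 and 36792 CPM, and Il1a was read in 20 of the 26 and 367 of the 834. Genes of monocytes and macrophages went both ways: Lyz2 stood at 242 CPM in the Saa3-rich cells and 808 CPM in the others, Ly6c2 at 269 and 626 CPM, Cd68 at 571 and 373 CPM, Csf1r at 33.6 and 24.9 CPM, C1qa at 6.72 and 13.7 CPM, C1qb at 26.9 and 22.6 CPM and C1qc at 0 and 15.2 CPM. Their median depth was 5393.5 UMIs, against 4559. The CD40 library had only 3 such neutrophils, and they did not share the rise in Lcn2, Slpi and Sod2. Lcn2 stood at 472 CPM in them and 1288 CPM in the other 352, Slpi at 1147 and 2384 CPM, and Sod2 at 202 CPM in both. S100a9 was again lower, at 23607 and 42817 CPM, and Gpr84 was higher, at 202 and 15.3 CPM.

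**Figure D4:**
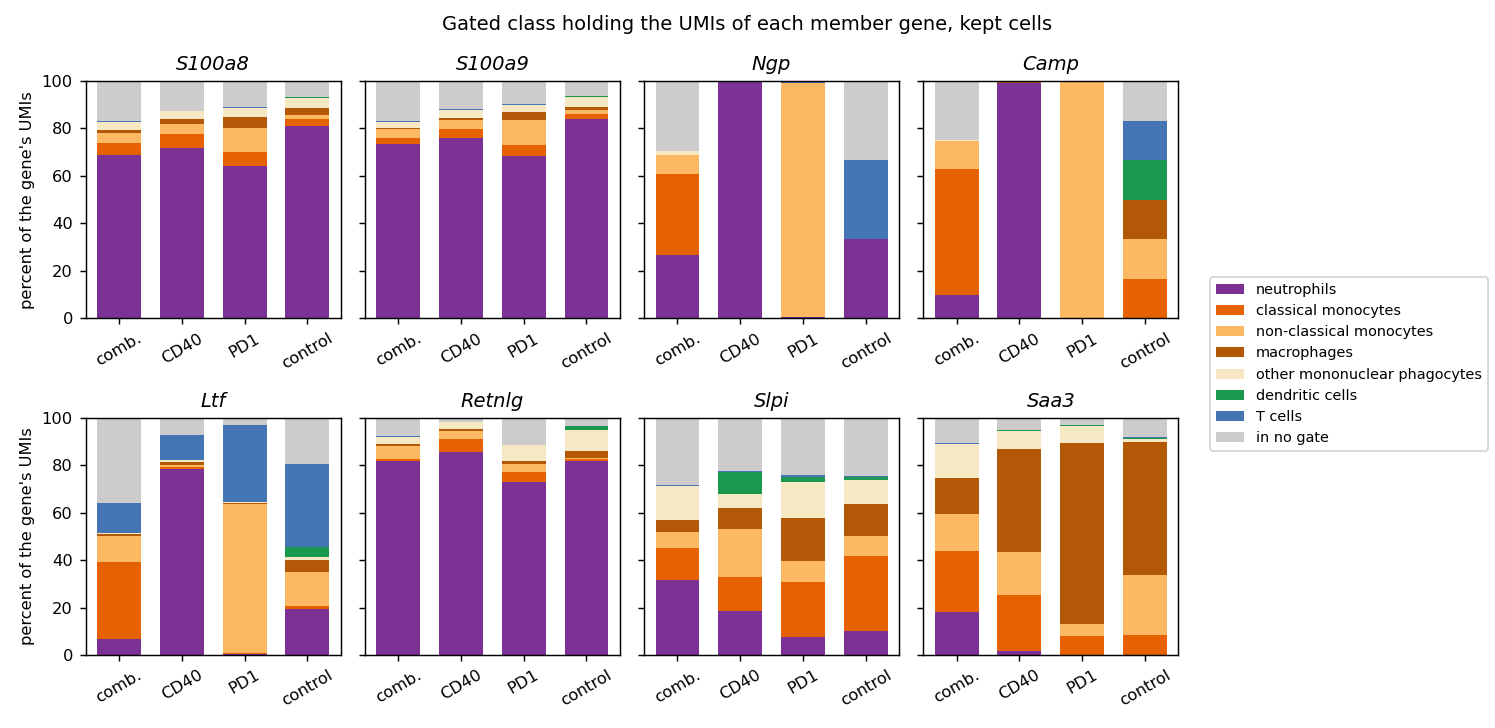
Share of each member's UMIs in kept cells (vertical axis, percent, 0 to 100) by gated class (colours) in the combination, CD40, PD1 and control libraries. S100a8, S100a9 and Retnlg lie mainly in neutrophils in every library, Slpi and Saa3 mainly outside them, and the bars of Ngp and Camp follow the gate of a few cells (the control bars rest on 3 and 6 UMIs).

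Most Saa3 lay in mononuclear phagocytes: 70.8% of the UMIs (combination library), 92.6% (CD40), 96.5% (PD1) and 91.1% (control). The class stood at 142 CPM in combination, 35.6 CPM in CD40, 65.3 CPM in PD1 and 30.1 CPM in control cells. Detection gave another order. After thinning, 4.87% of combination (4.17 to 5.65), 1.91% of CD40 (1.5 to 2.40), 1.34% of PD1 (1.04 to 1.69) and 0.661% of control mononuclear phagocytes (0.419 to 0.990) had a Saa3 UMI. Cells with 10 or more Saa3 UMIs numbered 154 of 3386, 63 of 3762, 52 of 5013 and 13 of 3482, and the 10 highest cells held 32.5%, 38.1%, 68.0% and 90.3% of the UMIs. The control level of mononuclear phagocytes thus rests on few cells, 1 of which held 39.5% of it, and in the PD1 library 76.4% of all Saa3 UMIs were in macrophages. Slpi at 10 or more UMIs was found in 32.5%, 22.2%, 28.8% and 46.2% of the Saa3-rich phagocytes of the combination, CD40, PD1 and control libraries. Among all phagocytes the shares were 10.7%, 5.90%, 3.33% and 3.73%. The control share is 6 of 13 cells. These counts are unthinned, and depth differed. Median depths were 22174.5, 25036, 14576.5 and 12559 UMIs in the Saa3-rich cells, against 18158.5, 19736.5, 13584 and 14797 in all phagocytes.

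Across mononuclear phagocytes, 3 of the 8 members were at least 2-fold higher (S100a8, S100a9, Retnlg) and 1 lower (Ltf, on 15 and 21 UMIs) in CD40 than in control cells, with 6 read, where 3.75% of 14259 genes were higher and 2.63% lower. For combination against PD1 the counts were 6 and 0 of 8, where 2.79% of 14037 genes were higher and 2.32% lower. PD1 against control gave 5 and 0 of 8, where 2.10% of 14010 genes were higher and 2.27% lower, but the PD1 granule-rich cell held 99.6% of the Ngp, 99.6% of the Camp and 97.5% of the Ltf UMIs there. Combination against CD40 gave 7 and 0 of 8, where 1.91% of 14259 genes were higher and 3.0% lower. In combination phagocytes 7 granule-rich cells held 1700 of 1713 Ngp, 1274 of 1288 Camp and 421 of 453 Ltf UMIs. Without phagocytes of 100 or more S100 UMIs, the combination against CD40 difference moved to 1.80 for Ngp, 0.38 for Camp and 1.10 for Ltf, against 8.52, 7.53 and 5.28 with them. The medians over the members were 0.76, 1.38, 1.17 and 1.76, beside -0.0092, -0.0036, -0.06 and -0.05 over all genes.

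S100a8 stood at 348 CPM in combination, 126 CPM in CD40, 57.6 CPM in PD1 and 29.6 CPM in control mononuclear phagocytes, and S100a9 at 305, 116, 58.4 and 25.0 CPM. Much of this sat in few cells: 93, 50, 17 and 11 phagocytes with 100 or more UMIs of the pair held 81.3%, 78.3%, 86.1% and 68.9% of it in the combination, CD40, PD1 and control libraries. Their Csf1r count of 2 or more keeps them out of the neutrophil gate. Another 322, 112, 36 and 24 cells had 10 or more S100 UMIs, at most 1 Csf1r and no Csf3r UMI, and of these 293, 87, 27 and 20 had at least 2 other neutrophil genes.

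Classical monocytes often carried S100a8 without S100a9. S100a8 was read in 46.4% of combination, 41.0% of CD40, 6.38% of PD1 and 6.47% of control classical monocytes, and S100a9 in 12%, 4.56%, 1.12% and 0.636%. Cells with S100a8 only numbered 387, 289, 84 and 56, and cells with S100a9 only 34, 9, 4 and 1. Macrophages showed this too, with 193, 229, 104 and 100 cells with S100a8 only and 44, 32, 9 and 2 with S100a9 only. After thinning, S100a8 was found in 14.4%, 9.51%, 1.64% and 0.848% of classical monocytes, against 0.574%, 0.412%, 0.103% and 0.0607% of T cells.

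**Figure D5:**
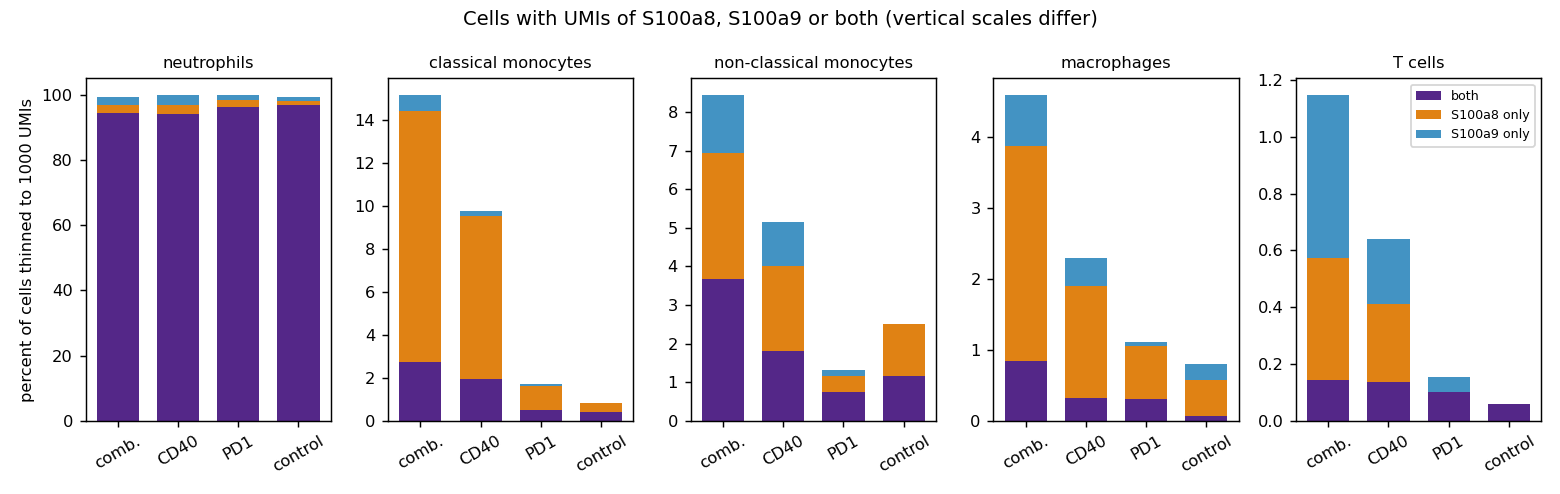
Percent of cells with UMIs of both S100a8 and S100a9, of S100a8 only or of S100a9 only after thinning to 1000 UMIs (stacked bars from 0; the vertical scale differs between panels), for 5 gated classes in the combination, CD40, PD1 and control libraries. Most neutrophils hold both genes, and T cells stay near 1 percent or below. Most classical monocytes hold neither gene. Those with a UMI have mostly S100a8 alone, except in the control library, where 4 cells hold S100a8 alone and 4 hold both.

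The ratio of the pair also differed between classes. Outside cells with 100 or more S100 UMIs, classical monocytes held 8.80 S100a8 UMIs per S100a9 UMI (combination library), 9.11 (CD40), 2.84 (PD1) and 2.98 (control). An excess of S100a8 was not particular to them. In the same order of libraries, macrophages below that limit held 4.04, 9.11, 4.07 and 3.91. Other mononuclear phagocytes held 3.95, 2.47, 6.32 and 2.40, and non-classical monocytes 1.93, 1.81, 1.11 and 1.11. Neutrophils below the same limit held 0.873, 0.868, 1.02 and 1.10, and T cells 0.730, 1.01, 2.82 and 3.29. The T cell ratios of the PD1 and control libraries rest on 110 and 39 UMIs (PD1) and 23 and 7 UMIs (control) of S100a8 and S100a9. The part of free RNA in these ratios was not tested. Over all gated neutrophils the ratio was 0.725 in combination, 0.786 in CD40, 0.825 in PD1 and 0.909 in control cells. The log2 difference of S100a8 in all mononuclear phagocytes was 2.10 for CD40 against control, 2.59 for combination against PD1, 0.96 for PD1 against control and 1.46 for combination against CD40. Without the S100-rich phagocytes, a step added after the data were seen, the PD1 against control difference was 0.04 for S100a8 and -0.36 for S100a9.

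Other granule genes of neutrophils were read from lists written with earlier results of these data known, and the shares over all genes given above for neutrophils apply to each list. Of 10 secondary granule genes, 3 of them members, 8 were at least 2-fold higher in CD40 than in control neutrophils and 0 lower, beside 5.49% and 6.36% over all genes. The 4 CD40 granule-rich cells held 332 of 354 Chil3, 129 of 161 Cd177 and 966 of 2112 Lcn2 UMIs of CD40 neutrophils, beside nearly all Ngp and Camp. Without granule-rich cells, a step added after the data were seen, 1 of 8 read was higher (Lyz2) and 1 lower (Chil3). Combination against PD1 gave 7 higher and 0 lower, and without the granule-rich cell 3 higher (Lcn2, Cybb, Chil3) and 0 lower. PD1 against control gave 0 and 0 among 6 read. Combination against CD40 gave 1 higher (Lcn2) and 6 lower, and without granule-rich cells 2 higher (Lcn2, Chil3) and 1 lower (Lyz2).

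Lcn2 stood at 3977 CPM in combination, 1281 CPM in CD40, 588 CPM in PD1 and 381 CPM in control neutrophils. Without the granule-rich cells it was 3988 CPM in combination and 726 CPM in CD40 neutrophils, and the log2 difference for CD40 against control was 0.93, short of 2-fold. Lyz2, which encodes lysozyme, stood at 791 CPM in combination, 2254 CPM in CD40, 956 CPM in PD1 and 846 CPM in control neutrophils, and at 1966 CPM in CD40 neutrophils without the granule-rich cells. Cybb, the catalytic subunit of the phagocyte NADPH oxidase, was at 132, 109, 55.3 and 39.8 CPM in the combination, CD40, PD1 and control libraries. Of the 5 primary granule genes present, the 2 higher for CD40 against control and the 4 higher for combination against PD1 came from the cells with Mki67 described above, and without them 0 of the 5 had enough UMIs to be read.

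A list of 8 genes of tertiary granules and secretory vesicles also held Mmp8, whose protein is stored in secondary granules. In each comparison 7 of the 8 were read. For CD40 against control 1 was higher (Fpr1, a formyl peptide receptor) and 0 lower, and for combination against PD1 2 were higher (Fpr1, Fpr2) and 1 lower (Mmp9, gelatinase B). PD1 against control gave 0 and 0. Combination against CD40 gave 0 higher and 4 lower (Mmp8, Mmp9, Mmp25, Anxa1), of which Mmp9 alone was left without the granule-rich cells. Mmp9 stood at 206 CPM in combination, 550.1 CPM in CD40, 492 CPM in PD1 and 566 CPM in control neutrophils, low in the combination library as Retnlg was.

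Of 8 genes of maturity and trafficking, 2 were higher (Ccrl2, Icam1) and 0 lower for CD40 against control, 2 higher (Ccrl2, Icam1) and 1 lower (Csf3r) for combination against PD1, and 1 higher (Icam1) and 0 lower for PD1 against control and for combination against CD40. Of 8 genes of a tumour neutrophil state, 3 were higher for CD40 against control (Il1a, Ccl4, Cd274), 4 for combination against PD1 (Il1a, Ccl3, Ccl4, Cd274) and 2 for PD1 against control (Ccl4, Cd274), with 0 lower. Only 6 of the 8 were read for PD1 against control. Combination against CD40 gave 3 higher (Il1a, Ccl3, Ccl4) and 1 lower (Siglecf) in that list. Among 10 alarmin partners, which include the receptors Tlr4 and Ager and other S100 genes, 8 were read for CD40 against control. Of these 0 were higher and 1 lower (S100a4). Combination against PD1 gave 2 higher (Il1b, Il18) and 1 lower (S100a4) among 8 read. PD1 against control gave 0 and 0 among 7 read, and combination against CD40 2 higher (Il1b, Il18) and 1 lower (Cd36) among 9 read. Ager had 1 to 6 UMIs in the gated neutrophils of a library.

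Of 12 acute-phase and family relatives, 6 had enough UMIs to be read in each comparison. Among these, 2 were higher (Lcn2, Wfdc17) and 1 lower (Retn) for CD40 against control. Combination against PD1 gave 3 higher (Lcn2, Wfdc17, Il1rn) and 1 lower (Retn). PD1 against control gave 0 and 0, and combination against CD40 3 higher (Lcn2, Wfdc17, Il1rn) and 0 lower. Without granule-rich cells Lcn2 dropped out of the CD40 against control count. Saa1, Saa2 and Saa4 had 4 UMIs or fewer, so among the serum amyloid A genes the neutrophil signal was Saa3. Wfdc17, a relative of Slpi by its WAP domain, stood at 3543 CPM in combination, 1686 CPM in CD40, 965 CPM in PD1 and 756 CPM in control neutrophils, the same order as Slpi. Retn, a relative of Retnlg, stood at 16.2, 21.8, 36.8 and 48.5 CPM in the combination, CD40, PD1 and control libraries. Of 9 transcription factors, Cebpe, which acts in secondary granule formation, was higher for CD40 against control on 59 and 8 UMIs, but 41 of the 59 were in CD40 cell 1, and without granule-rich cells the log2 difference was -0.54. Cebpb was higher for combination against PD1, and Cebpd and Cebpe were lower for combination against CD40. For PD1 against control 0 passed the fold, but only 5 of the 9 were read, and Cebpe, on 2 and 8 UMIs, was not. The other comparisons read 6 (CD40 against control), 8 (combination against PD1) and 8 (combination against CD40) of the 9.

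Over 28 points (7 gated classes in 4 libraries), S100a8 and S100a9 had a Pearson r of log2(CPM + 10) of 0.99 with each other, Ngp with Camp 0.97, Ltf with Camp 0.90, and Retnlg with S100a9 0.95. Saa3 reached 0.54 with Slpi at most. The genes outside the members most like S100a8 were Wfdc21 (0.98), Sgms2 (0.97) and Trem1 (0.97), and those most like S100a9 were Wfdc21 (0.97), Trem1 (0.96) and Ubap1 (0.96). Retnlg was closest to Cxcr2 (0.99), the chemokine receptor of mature neutrophils, Ccdc126 (0.99) and Gm37800 (0.99). Ngp was closest to Abca13 (0.86), Elane (0.86) and Gm34921 (0.85), Camp to Fcnb (0.90), Sept5 (0.86) and Rhox8 (0.86), and Ltf to Fcnb (0.87), 9230111E07Rik (0.85) and 1700094D03Rik (0.84). Slpi was closest to Id1 (0.89), Nlrp3 (0.89) and Mcl1 (0.88), and Saa3 to Sod2 (0.87), Lmbrd1 (0.85) and Gpr84 (0.84). Points of 1 library share its depth and free RNA, and no p-value applies. The neutrophil points were gated on S100a8 plus S100a9. The r values of this pair, and those with other genes high in that gate, therefore partly restate the gate. The r values of Ngp and Camp, and in part those of Ltf, rest on the points that hold a granule-rich cell. They therefore describe what those few cells carried.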

How the data were processed

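Live CD45+ cells of 4 groups were measured, 1 library per group from 6 pooled mice, with a 10x 5′ kit, per the labels' protocols. The authors deposited raw UMI counts per gene and barcode, and the submitters' processing notes name Cell Ranger 7.0.0 and GRCm38. The sources used here do not give the annotation release or the intron setting. A cell was kept with 300 or more genes and no more than 10% of its UMIs from 13 mitochondrial genes. Scrublet (scanpy 1.11.5) scores of 0.25 or more removed 239, 149, 257 and 111 cells of the combination, CD40, PD1 and control libraries as doublets (1.41% to 2.59%). Gates were applied in order to raw UMIs: neutrophils, dendritic cells (at least 2 Flt3 and 50 MHC class II UMIs), mononuclear phagocytes (at least 2 Csf1r, split into non-classical monocytes, macrophages with at least 20 C1q UMIs, classical monocytes with at least 5 Ly6c2 UMIs, and others), and T cells (at least 3 CD3 UMIs). Counts summed over a class in 1 library were scaled to CPM, with exact Poisson intervals. Log2 ratios, first-named library over the second, have exact conditional binomial intervals. Where a summed count was under 3 it was set to 3 per library, giving a bound, and list medians use that bound. Cells of 1 library are not replicates of a treatment, and no p-value was computed. The fold used was 2, among genes with at least 30 UMIs. The members and lists were chosen with earlier results of these data known. Named genes were the members, the genes of 8 lists and, for each member, the 3 genes of highest Pearson r. The ratios and intervals were tested on simulated data. Positions come from GENCODE vM21 and promoters from RefSeq GRCm38.p6, in which all 8 members matched. Computation used numpy 2.4.6, scipy 1.17.1 and pandas 2.3.3 under Python 3.11.15, and figures matplotlib 3.10.9.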

Additional observations from a re-analysis of the deposited data

Results flagged for a closer look

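Retnlg in gated neutrophils differed by 0.743 on the log2 scale for CD40 against control and by -0.593 for combination against PD1, that is, CD40 antibody went with a higher level without PD1 antibody and with a lower one beside it. With 1 library per group the difference between these values was not tested. Relative to the median of all genes read, the values were 0.86 and 0.02, so the opposite signs did not hold on that scale. In the gate that uses no member gene, the combination against PD1 value was 0.617.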

How the results depend on the processing

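No paired analysis was possible because each group is 1 library and no result comes from a test. Each alternative changed 1 choice, and 3 (Csf3r not required, cells with 10 or more Ngp UMIs left out, phagocytes with 100 or more S100 UMIs left out) were chosen after seeing the data. Of 493 single-gene values, 291 kept their value within the counting interval, 182 moved beyond it and 20 changed sign from a value whose interval excluded 0. Among the 182, a further 5 changed sign from an interval that included 0. Slpi and Saa3 in neutrophils kept their sign throughout. Of 76 summary values, 60 held, 15 moved (1 of them to the other sign, from an interval that included 0) and 1 changed sign from an interval that excluded 0. The cause was not tested except where a setting removes named cells.

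The median log2 ratio of the 8 members in neutrophils (1.64 for CD40 against control, 1.08 for combination against PD1, -0.74 for combination against CD40) moved under several settings. Leaving out the granule-rich cells brought it to 0.592 for CD40 against control, 0.370 for combination against PD1 and -0.159 for combination against CD40. Equal weight per cell gave 1.085, 0.320 and -0.587 for these comparisons, and thinning to 1000 UMIs gave 0.702, -0.138 (a change of sign) and -0.609. For combination against CD40 it was -0.883 with doublets kept, -0.889 with no cell filter, -0.573 with an S100 threshold of 5, -0.410 in the gate without members and -0.625 with Csf3r not required. The gate without members gave -0.273 for PD1 against control, and a log2 ratio of neutrophil shares of 2.13 for combination against PD1 (2.65 with the S100 gate).

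Signs also changed for single genes. In neutrophils without granule-rich cells, Camp was -1.035 and Ltf -0.743 for CD40 against control, and Camp -0.736 for combination against PD1 and 0.388 for combination against CD40. The Camp values against control and PD1 are lower bounds, since those libraries held 0 Camp UMIs, set to 3 for the ratio. As measured, Camp stayed higher, at 2.53 CPM in CD40 and 3.32 CPM in combination neutrophils. For combination against PD1, S100a8 was -0.0143 with doublets kept, -0.0147 with no cell filter, -0.2405 with equal weight and -0.229 thinned. S100a9 was -0.0336 with equal weight and -0.0463 thinned. Camp was -2.23 thinned, again a lower bound because PD1 neutrophils held 0 Camp UMIs. In the gate without members, Retnlg was 0.617 for combination against PD1 and -0.263 for PD1 against control, and S100a9 was -0.282 for PD1 against control and 0.0943 for combination against CD40. In phagocytes without S100-rich cells, PD1 against control was -0.3596 for S100a9, -0.323 for Camp and -1.32 for Ltf, and combination against CD40 was -0.596 for Retnlg, which equal weight put at -0.6103. Depth limits Ngp, Camp, Ltf and Saa3 in PD1 and control neutrophils, where 0 to 19 UMIs were read.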
